A study of Mus musculus with 12 samples.

Results

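The MHC class II antigen presentation genes followed here are H2-Aa, H2-Ab1, H2-Eb1, Cd74, H2-DMa, H2-DMb1, Ciita and Cd207. They were chosen by name, as the genes that build, load and switch on MHC class II molecules plus the Langerhans cell marker Cd207, and all 8 were found among the 23282 entries of the count files. RNA from the skin of 12 mice was sequenced from the 3′ ends of mRNA (QuantSeq), with 1 library per mouse, in 5 AD mice and 7 AD+OB mice. All were male C57BL/6J mice, labelled as wild type (WT) and 5 weeks old on arrival, and both groups were painted with 0.5% DNCB, a contact sensitiser that produces lesions like those of atopic dermatitis (AD), for 6 weeks. The AD mice were fed a standard diet, whereas the AD+OB mice, the HF + AD group of the study, were made obese with a high-fat diet (60% of calories from fat) begun 4 weeks before DNCB and continued through it. The comparison therefore asks how diet-induced obesity changed skin that carried DNCB-induced lesions, and skin without DNCB was not analysed here. The lesions come from a chemical hapten, and each sample is whole skin, so in these data fewer cells of a type and less RNA per cell cannot be told apart.

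Total counts on genes ran from 9746937 to 11688979 in AD libraries and from 10726845 to 13462434 in AD+OB libraries. Levels are given as CPM, the reads of a gene relative to all reads counted in its library, after TMM scaling of the totals. If each count were a separate molecule, a count of 0 would allow up to 3 counts. This is up to 0.308 CPM in an AD library and 0.280 CPM in an AD+OB library, as far as counting error goes. The AD libraries stood apart in complexity: at least 1 read was found on 13100 to 15063 genes in AD mice and on 15522 to 16677 in AD+OB mice. The estimated number of counts that stem from 1 sequenced molecule was 20.4 ± 9.61 (SD, n = 5) in AD libraries and 5.64 ± 1.27 (SD, n = 7) in AD+OB libraries, without overlap, so AD values of weakly expressed genes rest on few molecules. A count of 0 therefore allows higher levels than the limits above, most of all in AD libraries. Of 14163 genes tested, 1303 (9.2%) differed between the groups at an adjusted p under 0.05 (edgeR's quasi-likelihood test with Benjamini-Hochberg adjustment). Of all genes tested, 4.43% were higher and 4.77% lower in AD+OB mice by this rule.

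MHC class II molecules sit on dendritic cells, macrophages, B cells and, in the epidermis, Langerhans cells, and show peptides from engulfed proteins to CD4 T cells. In C57BL/6 mice the surface molecule is I-A, a pair of an alpha chain from H2-Aa and a beta chain from H2-Ab1. H2-Eb1 encodes the beta chain of I-E, which these mice do not assemble because their alpha chain gene for it is defective. The invariant chain, encoded by Cd74, fills the groove on the way to the lysosome, where H2-DM, a pair of the H2-DMa and H2-DMb1 products, exchanges its remnant for peptide. Ciita encodes the coactivator that switches the whole set on, and Cd207 encodes langerin, a lectin of Langerhans cells and of some dermal dendritic cells.

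Ciita does not touch DNA itself but docks on proteins bound to the X, X2 and Y boxes shared by class II promoters, which is why the start regions of 3 members are shown. RefSeq start windows on GRCm38.p6, from 250 bases before to 50 bases after the start, were found for 5 of 8 members (6 windows). In the sequences, written 5′ to 3′ along the gene, capitals mark matches on either strand to GCAAC (a core of the X box), TGACG (a core of the X2 box) and CCAAT (the core of the Y box).
H2-Aa, chr17:34287774-34288073, minus strand: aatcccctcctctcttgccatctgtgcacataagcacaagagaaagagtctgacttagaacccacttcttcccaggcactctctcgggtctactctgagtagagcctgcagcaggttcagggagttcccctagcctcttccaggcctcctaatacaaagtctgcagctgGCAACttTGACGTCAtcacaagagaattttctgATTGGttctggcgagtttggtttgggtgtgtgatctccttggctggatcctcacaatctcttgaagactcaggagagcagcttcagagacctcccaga
H2-Eb1, chr17:34305617-34305916, plus strand: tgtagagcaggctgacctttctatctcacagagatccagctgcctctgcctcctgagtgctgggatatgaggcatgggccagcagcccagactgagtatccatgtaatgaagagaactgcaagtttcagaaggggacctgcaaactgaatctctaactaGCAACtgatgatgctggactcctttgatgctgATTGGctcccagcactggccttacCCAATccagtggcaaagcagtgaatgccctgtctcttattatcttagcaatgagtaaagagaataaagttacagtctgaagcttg
H2-DMb1, chr17:34152941-34153240, plus strand: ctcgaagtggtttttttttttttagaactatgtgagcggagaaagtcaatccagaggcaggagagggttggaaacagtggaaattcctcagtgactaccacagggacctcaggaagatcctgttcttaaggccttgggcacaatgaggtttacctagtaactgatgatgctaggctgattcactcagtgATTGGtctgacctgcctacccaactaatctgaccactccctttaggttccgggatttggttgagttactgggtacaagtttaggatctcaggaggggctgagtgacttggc
The H2-Aa window holds all 3 cores, with the X core at -81 from the start, TGACG at -74, its reverse complement overlapping it at -71, and the Y core in reverse at -48. The H2-Eb1 window holds the X core at -91 and the Y core at -59 in reverse and again on the other strand at -35, and the H2-DMb1 window holds the Y core alone, at -61. In the H2-DMa windows a reverse X core lies at -7 and a reverse Y core at -198, and the Cd207 window holds none of the 3. Among all 32851 windows of this length, 37.4% hold CCAAT, 20.8% TGACG, 35.2% GCAAC and 2.92% all 3, so only the presence of all 3 in 1 window is uncommon. A match is a description of letters, and binding was not measured.

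The set did not move as 1 block between AD and AD+OB skin. H2-Aa and H2-Eb1 lay about 1.8-fold higher in AD+OB mice, H2-Ab1 and Cd74 differed by less than their error, and H2-DMa lay lower, at about 0.51 of the AD level. None of the 8 members passed the adjusted threshold in the edgeR fit (0 of 8, against 9.2% of all genes). At an unadjusted p under 0.05, 2 of 8 were higher (12.3% of all genes were) and 1 of 8 lower (12.8% of all genes were). Other tools called more genes in all than the 1303 of edgeR. With DESeq2 the adjusted threshold was passed by 2 members and 1946 genes in all, and with limma-trend by 1 member and 1558 genes in all. The median log2 fold change, AD+OB over AD, was 0.029 over the members and 0.023 over all genes tested. In no member were the groups free of overlap (0 of 8, against 5.57% of the 13200 genes with a mean count of at least 20, which Ciita and Cd207 did not reach).

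H2-Aa, the alpha chain of I-A (GRCm38 chromosome 17, 34282744 to 34287823, minus strand), was measured in AD mice 1 to 5 at 99.3, 41.2, 40.8, 26.2 and 36.8 CPM. In AD+OB mice it ranged from 65.0 to 128.8 CPM with a median of 81.8 CPM. AD mouse 1 was the highest of its group and lay inside the AD+OB range, while the other 4 AD mice lay below every AD+OB mouse. The edgeR log2 fold change, AD+OB over AD, was 0.88 (SE 0.28, 95% confidence interval 0.28 to 1.47), or 1.84-fold. Its p was 0.00628 with the quasi-likelihood test of edgeR, and its adjusted p of 0.0595 did not pass the threshold. On the log2(CPM + 1) scale the means were 5.49 ± 0.70 (SD, n = 5) and 6.46 ± 0.38 (SD, n = 7), with an exact permutation p of 0.0152 (two-sided). Without AD mouse 1 the log2 fold change was 1.31 and the edgeR adjusted p 0.00698.

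H2-Eb1, the I-E beta chain (chromosome 17, 34305867 to 34316674, plus strand), stood at 29.7, 11.8, 21.6, 16.8 and 9.96 CPM in AD mice 1 to 5. The AD+OB mice ranged from 23.0 to 58.4 CPM with a median of 27.3 CPM. Again AD mouse 1 alone reached into the AD+OB range, and 3 of 7 AD+OB mice lay above all AD mice. This gave a log2 fold change of 0.89 (SE 0.30, 95% confidence interval 0.26 to 1.52), or 1.85-fold, with an edgeR p of 0.00862 and an adjusted p of 0.0723. The exact permutation p for the difference in mean log2(CPM + 1), 4.15 ± 0.60 (SD, n = 5) against 5.03 ± 0.46 (SD, n = 7), was 0.0152. Leaving out AD mouse 1 gave a log2 fold change of 1.15 and an edgeR adjusted p of 0.0228.

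The partner of H2-Aa behaved otherwise. H2-Ab1, the I-A beta chain (chromosome 17, 34257689 to 34269419, plus strand), gave 194.9, 96.0, 67.9, 79.6 and 91.3 CPM in AD mice 1 to 5. Its AD+OB values ran from 64.1 to 147.5 CPM around a median of 87.9 CPM, so the groups covered nearly the same range and AD mouse 1 was the highest of all 12 mice. The log2 fold change was -0.083 (SE 0.26), and its 95% confidence interval of -0.64 to 0.47 leaves room for moderate changes either way (edgeR adjusted p = 0.884, exact permutation p = 0.884). Without AD mouse 1 the sign turned, to 0.26.

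**Figure D1:**
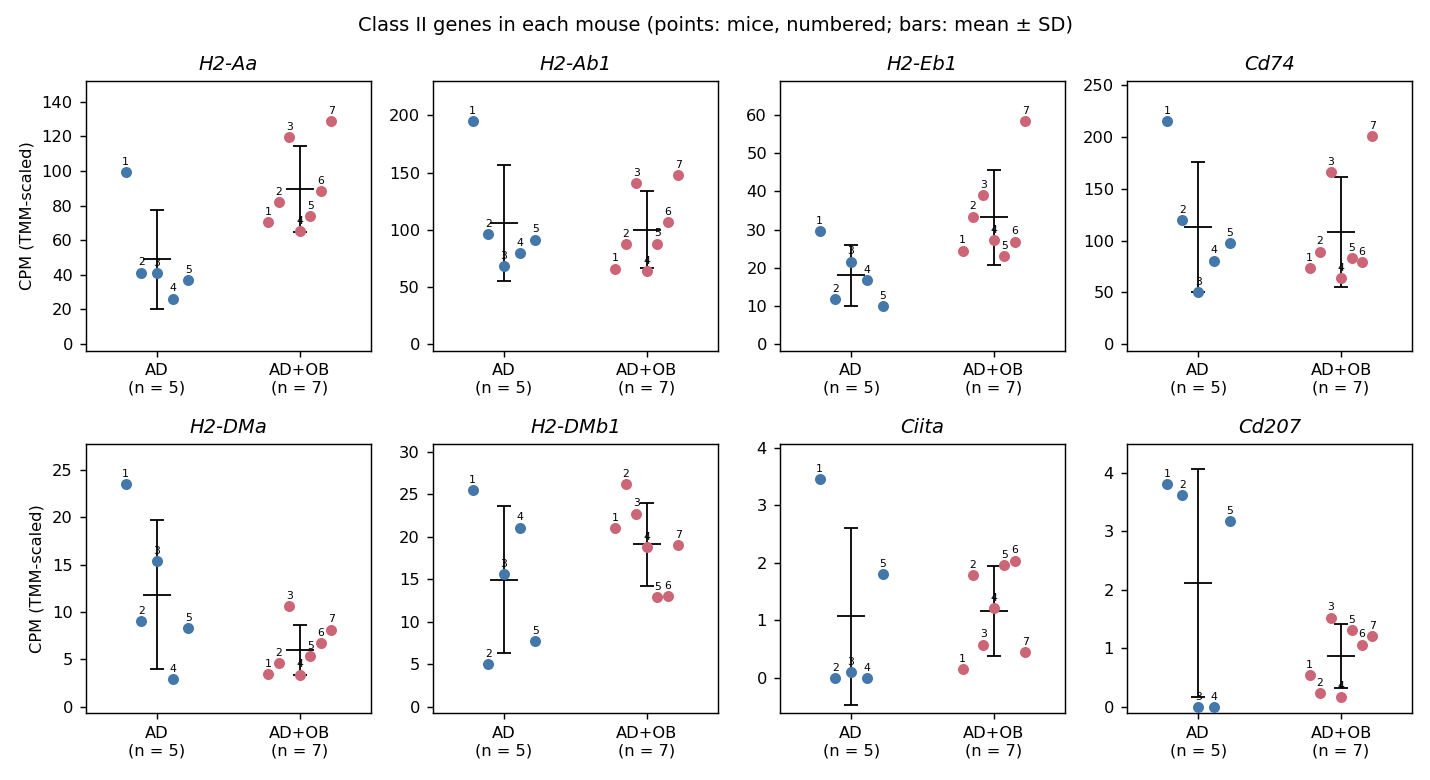
Level of each of the 8 members in each mouse, in CPM with TMM-scaled totals (vertical axis, a separate scale per gene), for the 5 AD mice and 7 AD+OB mice. Points are mice numbered within their group and bars are mean ± SD. For H2-Aa and H2-Eb1, AD mouse 1 alone reaches into the AD+OB range, whereas the H2-Ab1 and Cd74 points of both groups cover the same range.

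Cd74, the invariant chain (chromosome 18, 60803848 to 60812652, plus strand), had a fold change near that of H2-Ab1. In AD mice 1 to 5 it stood at 215.4, 119.9, 50.001, 80.7 and 97.3 CPM, and in AD+OB mice between 63.5 and 200.7 CPM with a median of 82.9 CPM. The lowest and the highest mouse of all were both AD mice, numbers 3 and 1, and the groups overlapped throughout. Its log2 fold change was -0.061 (SE 0.33, 95% confidence interval -0.76 to 0.64, edgeR adjusted p = 0.939, exact permutation p = 0.955), and it was 0.32 without AD mouse 1.

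Neither gene of the peptide exchange pair passed the adjusted threshold. H2-DMa (chromosome 17, 34119541 to 34139101, plus strand) stood at 23.5, 9.01, 15.4, 2.92 and 8.33 CPM in AD mice 1 to 5 and between 3.39 and 10.6 CPM in AD+OB mice, with a median of 5.34 CPM. AD mice 1 and 3 lay above every AD+OB mouse, and AD mouse 4 lay below all of them. Between the groups the log2 fold change was -0.97 (SE 0.46, 95% confidence interval -1.93 to -0.0056), with an edgeR p of 0.0488, an adjusted p of 0.196 and an exact permutation p of 0.141. Without AD mouse 1 it was -0.55, with an edgeR p of 0.234. Brd2 on the opposite strand overlaps H2-DMa by 3094 bases, away from its 3′ end, and the strand setting of the counting is not given in the sources used here.

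Its partner H2-DMb1 (chromosome 17, 34153072 to 34160230, plus strand) gave 25.5, 4.97, 15.6, 21.1 and 7.69 CPM in AD mice 1 to 5. AD+OB mice ranged from 12.9 to 26.2 CPM with a median of 19.0 CPM, and lay within a range that the AD mice crossed on the lower side with mice 2 and 5. A log2 fold change of 0.35 (SE 0.35, 95% confidence interval -0.39 to 1.09) did not pass the test (edgeR adjusted p = 0.588, exact permutation p = 0.223).

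Ciita and Cd207 had too few counts in these libraries for a difference to be resolved. Ciita (chromosome 16, 10480059 to 10528418, plus strand) was counted 0 to 38 times per AD mouse and 2 to 25 times per AD+OB mouse. In AD mice 1 to 5 this was 3.45, 0, 0.10, 0 and 1.81 CPM, and in AD+OB mice 0.15 to 2.04 CPM with a median of 1.22 CPM. AD mice 2 and 4 thus had no read, while AD mouse 1 had the highest level of all 12. For Ciita the log2 fold change was 0.12 with an SE of 1.13 (95% confidence interval -2.26 to 2.50, edgeR adjusted p = 0.966, exact permutation p = 0.551). Divided by the counts per molecule, the AD reads of Ciita come to an estimated 2.91 molecules over all 5 mice. The gene Dexi on the opposite strand covers the 3′ end of Ciita, so without a known strand setting its reads may not be separable from those of Dexi.

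Cd207 (chromosome 6, 83671215 to 83677857, minus strand) was listed at 3.81, 3.63, 0, 0 and 3.17 CPM in AD mice 1 to 5. AD+OB mice held 0.17 to 1.52 CPM with a median of 1.06 CPM. The AD mice were either above all AD+OB mice or at 0, and their reads stand for an estimated 5.42 molecules over all 5 AD libraries. The log2 fold change was -1.28 (SE 1.06, 95% confidence interval -3.52 to 0.95, edgeR adjusted p = 0.4927, exact permutation p = 0.351).

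A ratio of 2 genes within a mouse depends little on how its library is scaled (through the 1 added to each CPM alone). The ratios of CPM + 1 to H2-Aa showed how unevenly the members moved. H2-Ab1 was 1.95, 2.30, 1.65, 2.97 and 2.45 times H2-Aa in AD mice 1 to 5 and 0.939 to 1.21 times H2-Aa in AD+OB mice, with a median of 1.14. The groups did not overlap, and even AD mouse 1, which stood apart in level, kept the ratio of its group. The mean log2 ratio was 1.15 ± 0.32 (SD, n = 5) in AD and 0.13 ± 0.14 (SD, n = 7) in AD+OB mice, a difference of -1.02 with an exact permutation p of 0.00126, the smallest that 792 divisions of the mice allow, and 0.00316 after Benjamini-Hochberg adjustment over the 5 ratios tested.

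The ratio of H2-DMa to H2-Aa separated the groups in the same direction. It was 0.244, 0.237, 0.391, 0.144 and 0.247 in AD mice 1 to 5 and ran from 0.0627 to 0.0962 in AD+OB mice, with a median of 0.0703. All 7 AD+OB mice lay below all 5 AD mice. The difference in mean log2 ratio was -1.67 (AD -2.05 ± 0.51, SD, n = 5, AD+OB -3.73 ± 0.23, SD, n = 7, exact permutation p = 0.00126, adjusted 0.00316).

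For Cd74 the ratio to H2-Aa was 2.16, 2.86, 1.22, 3.00 and 2.60 in AD mice and between 0.898 and 1.55 in AD+OB mice, with a median of 1.09. AD mouse 3 lay among the AD+OB mice, and 5 of 7 AD+OB mice lay below all AD mice. The difference in mean log2 ratio was -0.99 (exact permutation p = 0.00379, adjusted 0.00631). H2-Eb1 kept nearly the same geometric mean ratio to H2-Aa, 0.394 in AD and 0.371 in AD+OB mice (log2 difference -0.087, exact permutation p = 0.712), and that of H2-DMb1 was 0.308 and 0.222 (log2 difference -0.47, exact permutation p = 0.294, adjusted 0.368).

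Among the 13199 genes with a mean count of at least 20, the ratio to H2-Aa was free of overlap in 7.11%, and it was so in 2 of the 5 members tested. That share covers genes whether or not they vary with H2-Aa from mouse to mouse, so it is not a matched background for the members. All these ratios also share H2-Aa as their base, the member with the smallest edgeR p. The members whose ratio fell have whole transcripts richer in GC (57.3% for H2-Ab1, 56.6% for Cd74 and 55.1% for H2-DMa) than H2-Aa (51.0%) and H2-Eb1 (51.8%), with H2-DMb1 at 53.8%. At the 3′ end of the transcripts, the part that QuantSeq reads, H2-Ab1 lay closer to H2-Aa. There GC was 53.4% for H2-Ab1, 56.0% for Cd74, 54.6% for H2-DMa, 51.8% for H2-Aa, 45.2% for H2-Eb1 and 52.8% for H2-DMb1. In another edgeR fit each library was corrected for how its counts varied with the GC content of whole transcripts, not of their 3′ ends. In that fit the log2 fold change of the gene minus that of H2-Aa was -1.09 for H2-Ab1, -1.10 for Cd74 and -1.95 for H2-DMa. These are differences of fitted fold changes, a measure unlike the mean within-mouse ratios above. Without the correction the fitted log2 fold changes were -0.083, -0.061 and -0.97, against 0.88 for H2-Aa. After division by the counts per molecule the same differences of fitted fold changes were -1.02, -0.99 and -1.80. That division uses 1 factor per library, which all but cancels between 2 genes, so it cannot show whether complexity affected the ratios. The AD side of these ratios rests on an estimated 13.6 to 34.0 molecules of H2-Aa and 2.70 to 9.22 molecules of H2-DMa per mouse, against 108.4 to 303.8 and 6.18 to 25.2 in AD+OB mice.

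**Figure D2:**
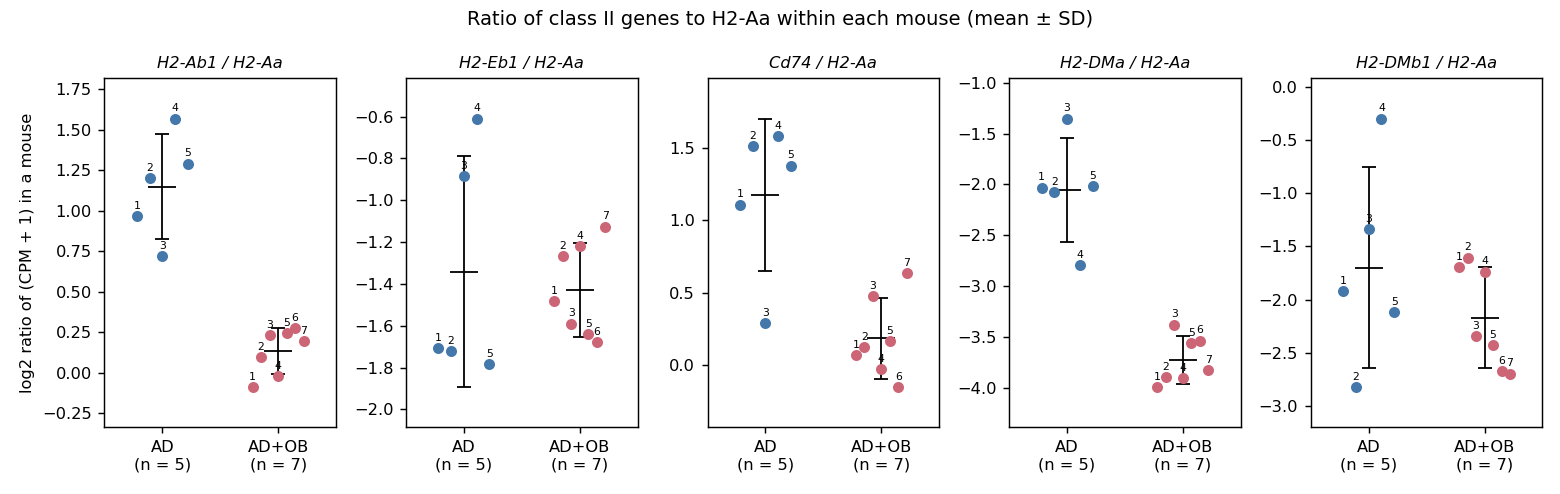
Log2 ratio of CPM + 1 of 5 members to H2-Aa within each mouse (vertical axis, a separate scale per gene), for 5 AD and 7 AD+OB mice. Points are mice numbered within their group and bars are mean ± SD. The groups are apart for H2-Ab1 (differing by -1.02) and H2-DMa (-1.67), nearly apart for Cd74 (-0.99), and overlap for H2-Eb1 and H2-DMb1.

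Among the 7 AD+OB mice the levels of the chains were correlated from mouse to mouse by Pearson's r, and by rank only for the pairs without H2-Eb1. AD+OB mice 3 and 7 were the highest of their group for H2-Aa, H2-Ab1, H2-Eb1 and Cd74 alike, and AD mouse 1 was the highest of its group for all 8 members. Over the 7 AD+OB mice, Pearson's r of log2(CPM + 1) between H2-Aa and H2-Ab1 was 0.971 (exact permutation p = 0.000397, adjusted over 6 pairs 0.00238), with Spearman's rho 0.964. For the other 5 pairs among these 4 genes r lay between 0.776 and 0.966 (exact permutation, adjusted p between 0.00476 and 0.0389), with rho between 0.536 and 0.893. By rank, the pairs with H2-Eb1 did not pass (rho 0.536 to 0.679, exact permutation, adjusted p 0.131 to 0.236). The pairs without H2-Eb1 passed by rank (exact permutation, adjusted p 0.0167 to 0.0476).

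Over all 12 mice r was highest for H2-Ab1 with Cd74 and for H2-Aa with H2-Eb1, and differences between the correlations were not tested. Differences between the group means enter these values, so they do not measure variation among mice of 1 group alone. H2-Ab1 and Cd74 had an r of 0.930 (permutation p = 2e-05, adjusted 0.00012) and a rho of 0.867 (permutation p = 0.00056), and r was 0.854 without the 2 mice farthest from the median of H2-Ab1. H2-Aa and H2-Eb1 had an r of 0.855 (permutation p = 0.00035, adjusted 0.00105) and a rho of 0.888 (permutation p = 0.00021), and r was 0.869 without 2 mice. For H2-Aa and H2-Ab1 it was 0.607 (permutation p = 0.0357, adjusted 0.0715), with a rho of 0.657 (permutation p = 0.0239). For H2-Aa and Cd74 it was 0.565 (permutation p = 0.0569, adjusted 0.0854), with a rho of 0.538 (permutation p = 0.0755). With H2-Eb1, r was 0.428 for H2-Ab1 (permutation p adjusted 0.197) and 0.396 for Cd74 (0.204), with rho at 0.371 and 0.350, and r was 0.166 and 0.237 without the 2 farthest mice. In the AD mice alone no correlation was computed, and their order differed between genes: AD mouse 3 was second highest for H2-Eb1 and lowest for H2-Ab1 and Cd74.

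**Figure D3:**
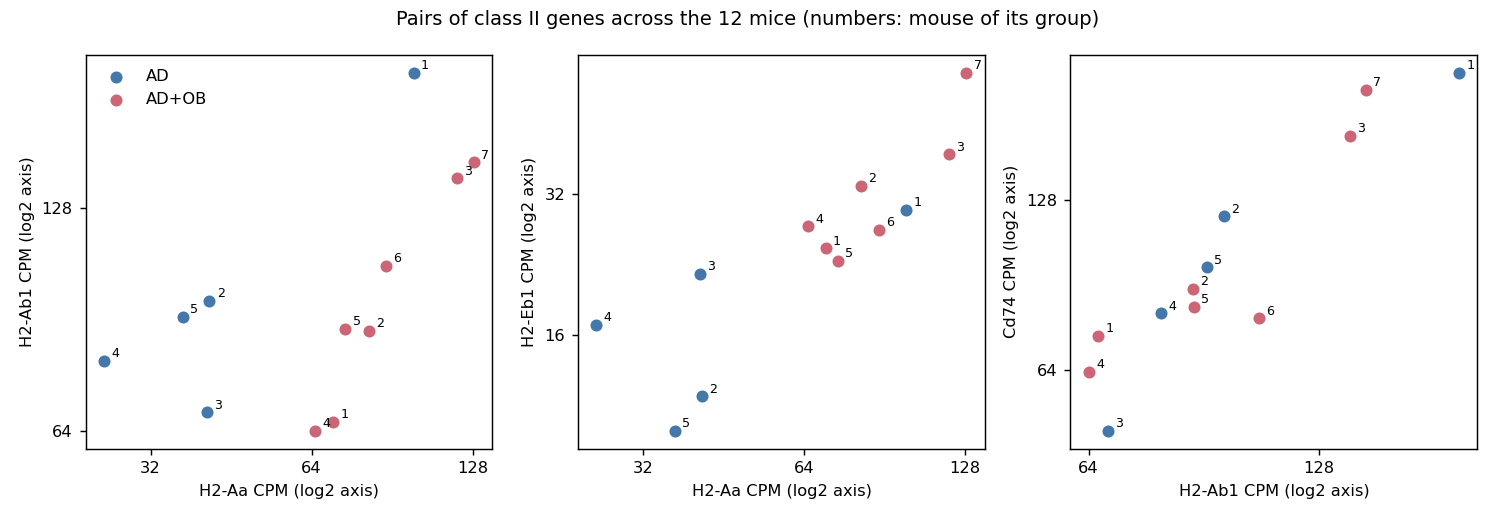
CPM of pairs of members in each of the 12 mice, on log2 axes, with AD mice in blue and AD+OB mice in red, numbered within their group. H2-Aa and H2-Eb1 (r = 0.855) and H2-Ab1 and Cd74 (r = 0.930) rise together over both groups, whereas for H2-Aa and H2-Ab1 (r = 0.607) AD mice 2 to 5 lie to the left of all AD+OB mice while their H2-Ab1 values lie within the AD+OB range.

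The genes whose pattern was most like the mean of H2-Aa, H2-Ab1, H2-Eb1 and Cd74, over 12 mice after each group's mean was taken away, were Col3a1 (r = 0.974) and Col1a2 (r = 0.965), which encode fibrillar collagen chains, Gm1987 (r = 0.961) and Ccl21a (r = 0.960), and Itgbl1 (r = 0.957). Gm1987 and Ccl21a are near-identical copies of a chemokine gene with almost the same counts in every mouse and are uncertain as separate genes. AD mouse 1 and AD+OB mice 3 and 7 were again the highest of their groups for all 5. Without AD mouse 1 these values of r lay between 0.917 and 0.952. None of the 5 passed the test between AD and AD+OB (edgeR adjusted p between 0.240 and 0.968).

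Of 44 further genes of the pathway in 7 lists, 43 were found and 34 could be tested. At the adjusted threshold 2 were higher and 2 lower in AD+OB mice (4 of 34, against 9.2% of all genes). At an unadjusted p under 0.05, 7 of the 34 were higher (against 12.3% of all genes) and 4 of the 34 lower (against 12.8%), with a median log2 fold change of 0.13 over the 34. Whether these counts differ from the background was not tested. The calls fell in 2 lists, lysosomal processing and Langerhans cell genes. Ctsz, a lysosomal carboxypeptidase, stood at 89.6 to 140.7 CPM in AD and 49.2 to 80.5 CPM in AD+OB mice, without overlap (log2 fold change -0.83, SE 0.15, edgeR adjusted p = 0.00662). Ifi30, the lysosomal thiol reductase GILT that opens disulfide bonds of antigens, stood at 41.8 to 71.9 CPM in AD and 83.4 to 105.3 CPM in AD+OB mice, also without overlap (log2 fold change 0.72, SE 0.15, edgeR adjusted p = 0.00982). So 2 lysosomal genes of the same list moved in opposite directions.

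Ctsd, the aspartic protease cathepsin D, rose by a log2 fold change of 0.67 (SE 0.20, edgeR adjusted p = 0.0405), with 5 of 7 AD+OB mice above all AD mice. This call was lost in 11 of 23 alternatives, among them the correction for GC content (adjusted p = 0.117) and the omission of AD mouse 2, 3 or 4 or of AD+OB mouse 1, 2, 4, 6 or 7. Of the other lysosomal genes, among them Ctss, which trims the invariant chain, none passed, and the median of the 9 genes was 0.38. Runx3, a transcription factor that Langerhans cells need and that other skin cells also use, fell from 29.4 to 43.2 CPM in AD to 16.3 to 25.95 CPM in AD+OB mice, without overlap (log2 fold change -0.84, SE 0.19, edgeR adjusted p = 0.0137). It was the only Langerhans cell gene of 6 tested to pass, and the median of that list was -0.011.

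The proteins that bring Ciita to the X, X2 and Y boxes (the Rfx and Nfy subunits and Creb1) gave 0 calls among 7 genes with edgeR and a median log2 fold change of 0.33. At an unadjusted p under 0.05, 2 of the 7 were higher (12.3% of all genes were). Interferon-gamma, the main inducer of Ciita, was hardly detected: Ifng had no read in 4 of 5 AD mice and 3 of 7 AD+OB mice. Of the 6 genes of its signalling list that could be tested, none passed. Of these 6, 3 had a log2 fold change above 0 and 3 below, with a median of -0.071. At an unadjusted p under 0.05, 1 was higher (12.3% of all genes were) and 1 lower (12.8% were). Jak1, a kinase of the interferon-gamma receptor, came nearest with 0.45 (edgeR adjusted p = 0.0822). Its edgeR adjusted p was 0.0338 without AD mouse 1 and 0.169 without AD+OB mouse 1, and it passed in 1 of 23 alternatives. Of the 5 costimulation and 2 surface turnover genes tested none passed, with medians of -0.39 and -0.37. The other class II chains (H2-DMb2, H2-Oa, H2-Ob, H2-Eb2 and H2-Ea-ps) were all too low to test, summing to 0 to 4.25 CPM in AD and 0 to 1.31 CPM in AD+OB mice, and H2-Ea-ps was at 0 in all 12.

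**Figure D4:**
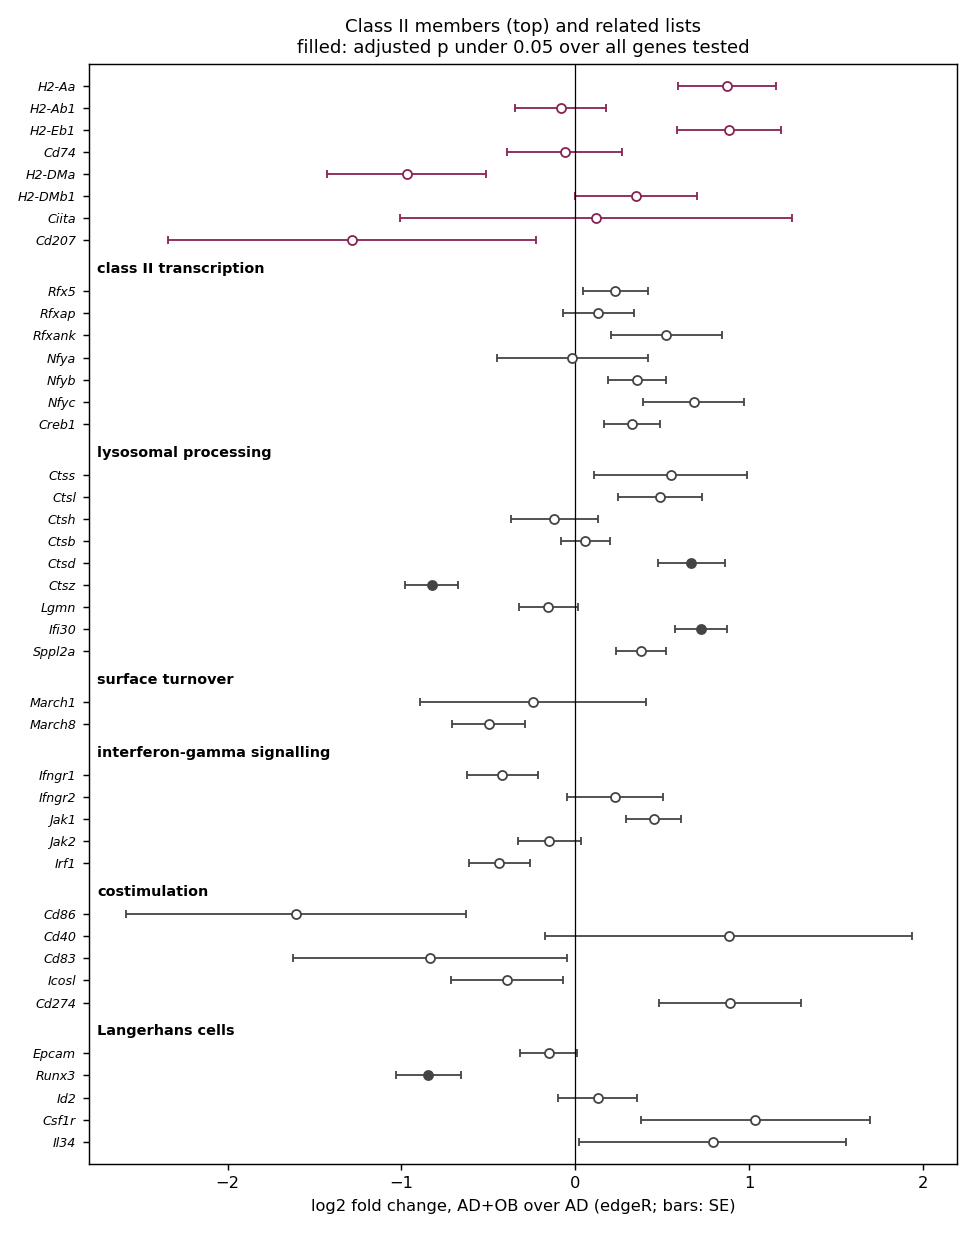
Log2 fold change, AD+OB over AD, of the 8 members (top) and of genes of the related lists that could be tested (1 is not shown), from edgeR, with bars of 1 SE either side. Filled points have an adjusted p under 0.05 over all genes tested: Ctsd (0.67) and Ifi30 (0.72) to the right, Ctsz (-0.83) and Runx3 (-0.84) to the left, and no member.

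Markers of the cells that carry class II were compared with the members. The 9 dendritic cell genes that could be tested gave 0 calls at either threshold, their median was -0.027, and the 12 listed genes summed to 47.8 to 120.9 CPM in AD and 48.2 to 133.8 CPM in AD+OB mice. Itgax, which encodes CD11c, had a log2 fold change of 0.12 (edgeR adjusted p = 0.944) and was at 0 in AD mouse 1, the AD mouse with the highest H2-Aa. The library of that mouse had the most counts per molecule (32.2), so this 0 does not show that Itgax was absent. Of 9 macrophage genes, 8 had a log2 fold change above 0, and the list's median was 1.04. At an unadjusted p under 0.05, 3 of the 9 were higher (12.3% of all genes were), and none passed adjustment. Its sum was 44.8 to 206.6 CPM in AD and 67.4 to 315.8 CPM in AD+OB mice. The macrophage genes Adgre1 and Cd68 had log2 fold changes of -0.12 and 0.62, neither of which passed. The part of macrophages in the levels of H2-Aa and H2-Eb1 was not tested.

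B cell genes were near 0, at 0 to 3.81 CPM in AD and 0.0725 to 2.15 CPM in AD+OB mice over the whole list, with Ms4a1 and Cd79a at 0 in every AD mouse. T cell genes summed to 0.44 to 19.9 CPM in AD and 3.55 to 6.29 CPM in AD+OB mice. Of the 4 T cell genes that could be tested, 2 had a log2 fold change above 0 and 2 below, with a median of 0.076. At an unadjusted p under 0.05, 1 of the 4 was lower in AD+OB mice (12.8% of all genes were), and none passed adjustment. Cd4, the coreceptor that binds class II, had no read in 4 of 5 AD mice and was read in all 7 AD+OB mice (log2 fold change 0.21, edgeR adjusted p = 0.947), and Cd3e had none in 4 AD and 2 AD+OB mice. AD libraries had more counts per molecule, so their zeros for these genes do not show absence. The samples held the markers of skin in every mouse. Keratinocyte genes summed to 2920 to 4830 CPM in AD and 5396 to 9718 CPM in AD+OB mice, without overlap, whereas fibroblast genes summed to 3218 to 9633 CPM and 3220 to 10063 CPM. Of the 4 keratinocyte genes the basal keratins Krt5 and Krt14 were called higher (log2 fold changes 0.81 and 1.05), while Krt1 (0.12) and Krt10 (-0.42) did not pass. In other lists 2 of 4 endothelial genes (Cdh5 with 1.56 and Kdr with 1.06) and 3 of 7 hair shaft genes were called higher and 1 of 5 skeletal muscle genes (Acta1 with -0.72) lower. Of all genes tested, 4.43% were called higher and 4.77% lower. The part of these cells in the members' values was not tested.

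The 2 members nearest the threshold were tried under 23 alternatives. H2-Aa was higher in AD+OB mice in all 23, with an adjusted p between 0.00698 and 0.119 and under 0.05 in 6 of them, and H2-Eb1 likewise in all 23, with an adjusted p between 0.0228 and 0.162 and under 0.05 in 3. H2-DMa was lower in all 23 and its adjusted p stayed between 0.0824 and 0.467.

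**Figure D5:**
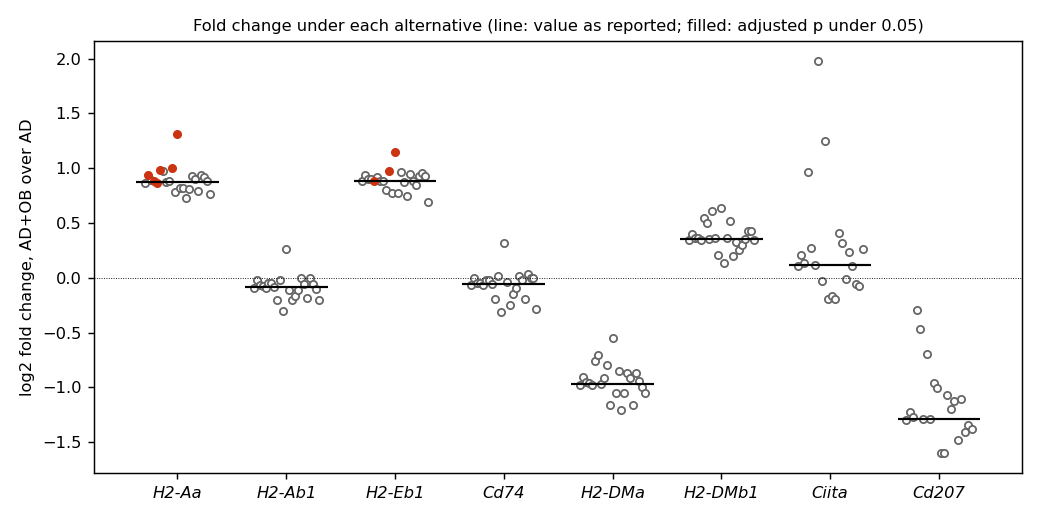
Log2 fold change, AD+OB over AD (vertical axis), of each member under each alternative setting (points) and as reported (line). Filled points have an adjusted p under 0.05: 6 of 23 for H2-Aa, 3 of 23 for H2-Eb1 and none for the other members. H2-Ab1, Cd74 and Ciita have points on both sides of 0.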

How the data were processed

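Skin RNA of 5 AD and 7 AD+OB mice was sequenced with QuantSeq, and groups and replicate numbers were taken from the labels. The deposited values are counts of reads per gene symbol, which the authors had not normalized, with 1 file per mouse. The submitters' processing notes name Bowtie2, bedtools and mm10. The strand setting, the annotation and any removal of duplicates are not given in the sources used here. Of 23282 entries, 35 symbols are listed more than once and 4677 have no count. No molecular identifiers are described, so limits on a count of 0 cover counting error only and take each count as a separate molecule. The p-values measure the spread between libraries, taken as 1 per mouse.

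Counts were compared with edgeR 4.0.16 in R 4.3.3 (TMM factors 0.944 to 1.04, filterByExpr, quasi-likelihood fit on group alone, 14163 genes under Benjamini-Hochberg adjustment, threshold 0.05). Single values and within-mouse ratios used log2(CPM + 1) and two-sided exact permutation over 792 divisions of the mice, and correlations over 12 mice used 100000 permutations. Other fits used DESeq2 1.42.0 and limma 3.58.1, and other steps Python 3.11.15, NumPy 2.4.6, SciPy 1.17.1 and matplotlib 3.10.9. Counts per molecule were estimated from the zeros among genes with 10 to 200 expected counts, and GC content came from 1 GENCODE M21 transcript per gene (95.3% of entries). Steps were tested on simulated data.

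The members and lists were chosen with earlier results of these data known. The genes named are the members, pathway genes with an adjusted p under 0.05 (or, with fewer than 5, the 5 of smallest p), Cd4, Cd3e, Itgax, Adgre1 and Cd68, and the 5 genes most like the chains. Ctss, Ifng, H2-Ea-ps, Ms4a1, Cd79a, Krt5, Krt14, Krt1, Krt10, Cdh5, Kdr and Acta1 were named after their values were seen. Some list genes count in their lists but are not reported here. The GC and complexity corrections of the ratios, and leaving out AD mouse 1 for the genes most alike, were added after the data were seen. Alternatives covered scaling (DESeq2's size factors, library totals), filters, the test (DESeq2, limma-trend, a two-group test as in the study, robust edgeR, ranks), a replicate block, a pseudocount of 0.1, library complexity, GC content and the omission of each mouse.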

Additional observations from a re-analysis of the deposited data

How the results depend on the processing

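The number of genes called was 1303, and 192 with the replicate block, 1946 with DESeq2's Wald test and 639 to 1461 when 1 mouse was left out (803 without AD mouse 2, 686, 639 and 794 without AD+OB mice 1, 2 and 4). Of the calls, 48.1% were higher, but 59.1% with library totals and 35.3% after the GC correction. The number of members called was 0 as reported, 1 with library totals, with at least 10 counts in every mouse and with limma-trend (H2-Aa each time), 2 with DESeq2's Wald test and with counts per molecule, and 0 to 2 when 1 mouse was left out. Genes called in all were 1259 with library totals, 1552 with at least 10 counts in every mouse, 1558 with limma-trend and 1430 with counts per molecule. The replicate numbers did not pair the mice (r between -0.0815 and 0.0389 for same-numbered mice), and with the replicate block H2-Aa had an adjusted p of 0.110 and H2-Eb1 of 0.162, while Ctsz (0.0528), Ifi30 (0.0722), Runx3 (0.0674) and Ctsd (0.0847) were no longer called.

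The fold changes near 0 turned their sign. For H2-Ab1 they ran from -0.20 to 0.26 when 1 mouse was left out. For Cd74 they were 0.00014 with library totals and 0.013 with counts per molecule, and ran from -0.28 to 0.32 when 1 mouse was left out. For Ciita they were -0.033 after the GC correction and ran from -0.20 to 1.25 when 1 mouse was left out. The differences in mean log2(CPM + 1) ran from -0.18 to 0.20 for H2-Ab1 and from -0.27 to 0.25 for Cd74, which was 0.022 with library totals. The ratio of H2-Eb1 to H2-Aa ran from -0.20 to 0.096. The 3 ratios to H2-Aa that passed kept their direction in all 15 alternatives. The GC correction and counts per molecule were read from edgeR's fold changes and give no p. In the other 13 alternatives the 3 ratios kept their threshold. When 1 mouse was left out they ran from -1.12 to -0.91 (H2-Ab1), -1.22 to -0.89 (Cd74) and -1.86 to -1.50 (H2-DMa). Correlations without the 2 farthest mice were 0.688 for H2-Aa and H2-Ab1 and 0.673 for H2-Aa and Cd74. The difference in mean log2(CPM + 1) for H2-DMa was -1.07 without AD mouse 4 (exact permutation p = 0.0182) and -0.41 without AD mouse 1 (exact permutation p = 0.342). The cause of these shifts was not tested. Ciita and Cd207 could not be fitted with at least 10 counts in every mouse or with counts per molecule, and DESeq2 gave them no adjusted p. Low counts limit both, with 0 to 38 counts of Ciita and 0 to 42 of Cd207 per AD mouse.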
